A study of Mus musculus with 9 samples.

Results

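Odorant receptors and trace amine-associated receptors (TAARs) are made in olfactory sensory neurons (OSNs), each of which settles on 1 receptor gene. Here 9 genes that act around this choice or carry the receptor to the cell surface were followed in RNA-seq data from mice lacking TAAR enhancer 2, a stretch of DNA near the Taar genes. They were taken by name from what is known of their roles: Rtp1, Rtp2, Atf5, Eif2ak3, Ddit3, Kdm1a, Lbr, Bcl11b and Tshz1. All 9 were among the 24421 genes with raw counts and among the 19775 genes tested. No member differed between genotypes in any test, and the largest differences among these genes lay between libraries that carry different replicate numbers.

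The 9 libraries were made from the whole main olfactory epithelium (MOE) of C57BL/6 mice at postnatal day 14. C57BL/6 is the strain in the labels; the deletion was made in C57BL/6J zygotes, the mouse lines of the study are described together as of mixed C57BL/6J and 129 backgrounds, and males and females were both used. There were 3 libraries from wild type mice (WT), 3 from TAAR enhancer 2 +/- mice (het) and 3 from TAAR enhancer 2 -/- mice (homo), all from 1 line made by CRISPR-Cas9 deletion, and no mouse received a treatment. The whole tissue was taken, so the libraries also hold RNA from supporting, basal, respiratory and blood cells, and fewer cells of a type cannot be told apart from less RNA per cell. By the account of the study, the RNA-seq used 3 mice per genotype that were littermates, and p-values here measure the spread between these samples. The labels do not say what the replicate number marks.

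Total counts ran from 20527992 to 32262005 per library. The number 1 library was the shallowest of each genotype, with totals of 20527992, 21276029 and 22292647. In homo against WT, 4 genes were called, and all 4 were Taar genes that were lower in homo. The raw counts of Taar6 were 134, 214 and 170 in WT, 96, 117 and 132 in het, and 14, 17 and 20 in homo, so every homo library lay below every WT and het library. Markers of mature OSNs summed to between 6333 and 7311 CPM, counts relative to the TMM-scaled depth of their library, with none of the 9 markers at 0. WT replicate 3 stood apart from the other libraries. Its 7 neutrophil markers summed to 3485 CPM against at most 1021 CPM elsewhere, and its 4 sustentacular cell markers summed to 2229 CPM against 4392 to 5320 CPM in the other libraries.

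When a young OSN first makes a receptor protein, the protein engages the unfolded protein response in the endoplasmic reticulum. The kinase Perk, encoded by Eif2ak3, then phosphorylates the translation factor eIF2 alpha, and this lets the transcription factor Atf5 be translated. Atf5 in turn allows the neuron to switch on Adcy3 and mature, after which the histone demethylase Lsd1, encoded by Kdm1a, is turned down so that no second receptor is opened. Most of these steps act on protein, so mRNA levels follow only part of the pathway. Ddit3 encodes Chop, a transcription factor of the same stress pathway. Rtp1 and Rtp2 encode membrane proteins that help receptors to reach the cell surface. Lbr encodes the lamin B receptor of the inner nuclear membrane, whose loss from OSN nuclei goes with the gathering of silent receptor genes into compact foci. Bcl11b and Tshz1 encode zinc finger transcription factors, and Bcl11b is known for favouring class II over class I odorant receptors.

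The promoters of the stress pathway members are shown here, with those of Lbr and Bcl11b, whose windows had the highest and the lowest GC content among the members. The GC content that moved with the differences between replicate numbers, described further on, was that of the transcript. The GC content of promoters was not set against those differences. Each run is 250 bases before to 50 bases after a transcription start, 5′ to 3′ on the gene's own strand, from RefSeq on GRCm38.p6. Such a window was at hand for 7 of the 9 members, and Rtp1 was not among them. Capitals mark matches to CCAAT on either strand, to CCCNNGGG, or to TATAAA on either strand.

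Eif2ak3, chr6:70844265-70844564, + strand: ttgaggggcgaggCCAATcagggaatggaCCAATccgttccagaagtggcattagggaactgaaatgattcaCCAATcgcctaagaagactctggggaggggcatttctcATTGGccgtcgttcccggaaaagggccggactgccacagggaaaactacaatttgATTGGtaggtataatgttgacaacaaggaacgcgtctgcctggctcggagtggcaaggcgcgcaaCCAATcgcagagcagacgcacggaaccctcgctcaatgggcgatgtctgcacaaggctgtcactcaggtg
Atf5, chr7:44816609-44816908, - strand: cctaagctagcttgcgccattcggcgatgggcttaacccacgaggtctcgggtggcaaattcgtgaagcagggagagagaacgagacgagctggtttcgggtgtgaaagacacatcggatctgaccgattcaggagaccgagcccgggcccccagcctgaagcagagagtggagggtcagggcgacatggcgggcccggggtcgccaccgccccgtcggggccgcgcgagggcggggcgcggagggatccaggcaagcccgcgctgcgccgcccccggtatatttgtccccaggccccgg
Ddit3, chr10:127290543-127290842, + strand: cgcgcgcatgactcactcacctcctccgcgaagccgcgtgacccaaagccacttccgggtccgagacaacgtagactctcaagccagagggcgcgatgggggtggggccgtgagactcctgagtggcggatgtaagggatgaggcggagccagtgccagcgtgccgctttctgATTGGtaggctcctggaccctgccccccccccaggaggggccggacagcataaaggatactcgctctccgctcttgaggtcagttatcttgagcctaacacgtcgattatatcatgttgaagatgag
Lbr, chr1:181842352-181842651, - strand: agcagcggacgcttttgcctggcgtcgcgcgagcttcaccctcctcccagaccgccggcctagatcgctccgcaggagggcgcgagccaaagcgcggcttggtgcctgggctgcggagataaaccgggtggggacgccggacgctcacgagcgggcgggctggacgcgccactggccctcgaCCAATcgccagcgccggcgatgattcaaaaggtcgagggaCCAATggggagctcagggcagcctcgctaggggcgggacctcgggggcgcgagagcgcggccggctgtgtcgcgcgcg
Bcl11b, chr12:108003365-108003664, - strand: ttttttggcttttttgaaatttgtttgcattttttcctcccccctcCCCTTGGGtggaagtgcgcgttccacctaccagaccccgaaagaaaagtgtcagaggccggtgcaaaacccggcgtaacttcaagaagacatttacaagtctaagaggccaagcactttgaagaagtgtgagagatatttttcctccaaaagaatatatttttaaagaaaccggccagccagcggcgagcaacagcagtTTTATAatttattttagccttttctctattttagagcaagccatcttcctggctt

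The Eif2ak3 window held 6 CCAAT matches, the Lbr window 2, the Ddit3 window 1 and the Atf5 window none. CCAAT was present in 37.4% of all 32851 promoters of this length. A second Atf5 start, at chr7:44815609-44815908 on the - strand, had 1 CCAAT match. The only match among the members to TGATGNAA, the core to which the Chop and Atf4 pair of factors binds, was in the Kdm1a window, and 3.97% of all promoters held it. CCCNNGGG, the core bound by the Ebf factors of OSNs, was found once in the Rtp2 and once in the Bcl11b window and in 13.7% of all promoters, and it reads the same on both strands. TATAAA occurred once in Bcl11b and in 13.6% of all promoters. No member window held TGACGTCA, found in 1.79% of all promoters, or TAATTA, found in 5.29%, which says only that these letters were not in these windows.

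The promoter GC content was 72.0% for Lbr, 68.0% for Atf5, 60.7% for Ddit3, 54.7% for Eif2ak3 and 43.0% for Bcl11b, against a median of 52.7% for all promoters. The transcripts were ordered differently. The longest transcript had a GC content of 61.7% in Atf5, 50.1% in Bcl11b, 45.6% in Ddit3 and 44.2% in Lbr. Lbr therefore joined the promoter richest in GC among the 7 members to the transcript poorest in GC among the 9.

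The members differed widely in level per length of exon. Atf5 was the highest, at 444 ± 102 CPM per kb (SD, n = 9 libraries), and ranked 40 of 19019 genes. Rtp1 followed at 163 ± 13.9 CPM per kb and Rtp2 at 98.9 ± 7.43 CPM per kb. The top of the order thus held the transcription factor of the feedback and both receptor transporters. Tshz1 stood at 42.3 ± 5.50 CPM per kb. Ddit3 at 25.4 ± 4.68 and Kdm1a at 23.5 ± 0.861 CPM per kb were neighbours that did not differ beyond their spread. Bcl11b had 14.5 ± 2.30 CPM per kb. Eif2ak3 at 10.2 ± 0.236 and Lbr at 9.57 ± 1.67 CPM per kb came last and also overlapped. Even Lbr was higher per length than 69.5% of the genes.

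**Figure D1:**
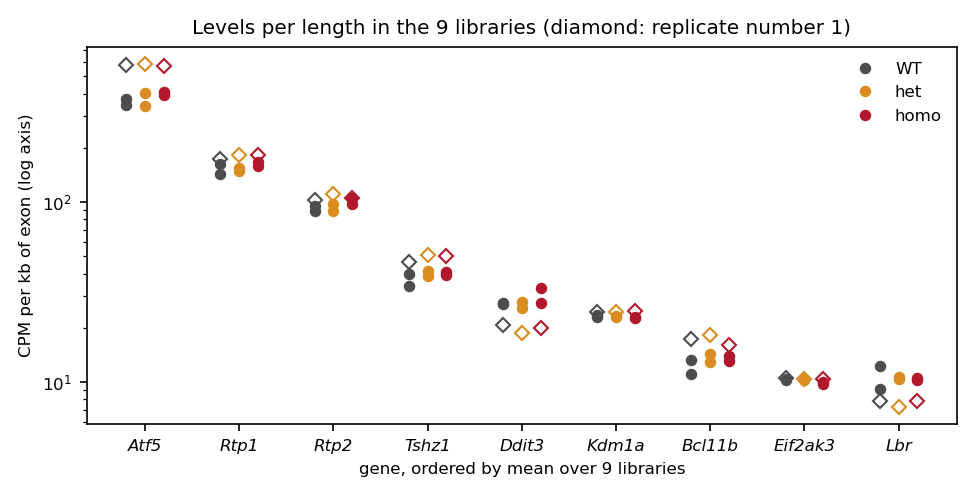
Level of each member in CPM per kb of exon (log axis), with 1 point per library coloured by genotype, diamonds for replicate number 1, and genes ordered by their mean. Atf5 is highest at a mean of 444 CPM per kb and Lbr lowest at 9.57 CPM per kb, and the 3 genotypes lie over one another for every gene.

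For the receptor transporters, Rtp1 (chromosome 16, 23429133 to 23433960) had 13584, 12780 and 11290 normalized counts in WT, 14282, 12195 and 11729 in het, and 14376, 13076 and 12404 in homo. Rtp2 lies on the same chromosome at 23925548 to 23932394, and it had 6960, 6467 and 5995 normalized counts in WT, 7455, 6553 and 6033 in het, and 7053, 7057 and 6580 in homo. For both genes the genotypes overlapped, and WT replicate 3 was the lowest of all libraries. The homo-to-WT log2 fold change was 0.09 ± 0.12 (SE) for Rtp1, with a 95% interval of -0.18 to 0.36. For Rtp2 it was 0.10 ± 0.10, with an interval of -0.14 to 0.34. The ratio of Rtp1 to Rtp2 per length ran from 1.59 to 1.75 over the 9 libraries, so the proportion of the 2 transporters was held within a narrow band in all genotypes.

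For the kinase and the transcription factors of the stress pathway, Eif2ak3 (chromosome 6, 70844515 to 70905245) was the steadiest member. It had 1610, 1564 and 1576 normalized counts in WT, 1577, 1556 and 1582 in het, and 1577, 1484 and 1515 in homo. Its coefficient of variation over the 9 libraries was 2.45%, no larger than the counting error of 2.78% in the library with its fewest counts. On the CPM scale, only 0.157% of the 6367 genes with a mean of at least 40 CPM varied less over the 9 libraries than Eif2ak3. The homo-to-WT log2 fold change of Eif2ak3 was -0.05 ± 0.07, with an interval of -0.21 to 0.12.

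Atf5 (chromosome 7, 44812256 to 44816658) varied the most. Its normalized counts were 29135, 18943 and 17479 in WT, 29355, 20275 and 17266 in het, and 28422, 20616 and 19806 in homo. In each genotype 1 library, that of replicate number 1, was far above the other 2, and the genotypes overlapped. The Atf5 log2 fold change was 0.08 ± 0.26 in homo against WT, with an interval of -0.50 to 0.66. Among the 6367 genes, 91.8% varied less than Atf5.

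Ddit3 (chromosome 10, 127290774 to 127296288) had 899, 1171 and 1192 normalized counts in WT, 813, 1198 and 1115 in het, and 861, 1183 and 1441 in homo. Here replicate number 1 was the low library of each genotype, the reverse of Atf5. The log2 fold change was 0.10 ± 0.21 in homo against WT, with an interval of -0.38 to 0.58. Without WT replicate 1 or without homo replicate 3 its sign turned, to -0.01 and -0.07.

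For the demethylase that opens receptor chromatin, Kdm1a (chromosome 4, 136550540 to 136602723) had 3203, 3089 and 3018 normalized counts in WT, 3216, 2992 and 3044 in het, and 3235, 2980 and 2940 in homo. The range was narrow, and 2.29% of the 6367 genes varied less. The Kdm1a log2 fold change was -0.02 ± 0.08 in homo against WT, with an interval of -0.19 to 0.16. Lbr (chromosome 1, 181815335 to 181843046) had 946, 1099 and 1483 normalized counts in WT, 874, 1274 and 1262 in het, and 934, 1224 and 1268 in homo. Its highest value was in WT replicate 3 and its 3 lowest were in the libraries of replicate number 1. The Lbr log2 fold change was -0.04 ± 0.21 in homo against WT, and 0.16 when WT replicate 3 was left out.

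Both zinc finger factors were expressed in every library. Bcl11b (chromosome 12, 107910403 to 108003602) had 3551, 2739 and 2268 normalized counts in WT, 3735, 2932 and 2673 in het, and 3278, 2674 and 2830 in homo. Tshz1 (chromosome 18, 84011627 to 84087706) had 6841, 5868 and 5028 in WT, 7455, 6092 and 5778 in het, and 7350, 5795 and 5981 in homo. Each had its lowest value in WT replicate 3, and replicate number 1 was highest in every genotype. The homo-to-WT log2 fold change was 0.05 ± 0.18 for Bcl11b, with an interval of -0.36 to 0.45, and -0.10 without WT replicate 3. For Tshz1 it was 0.12 ± 0.15, with an interval of -0.23 to 0.46.

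**Figure D2:**
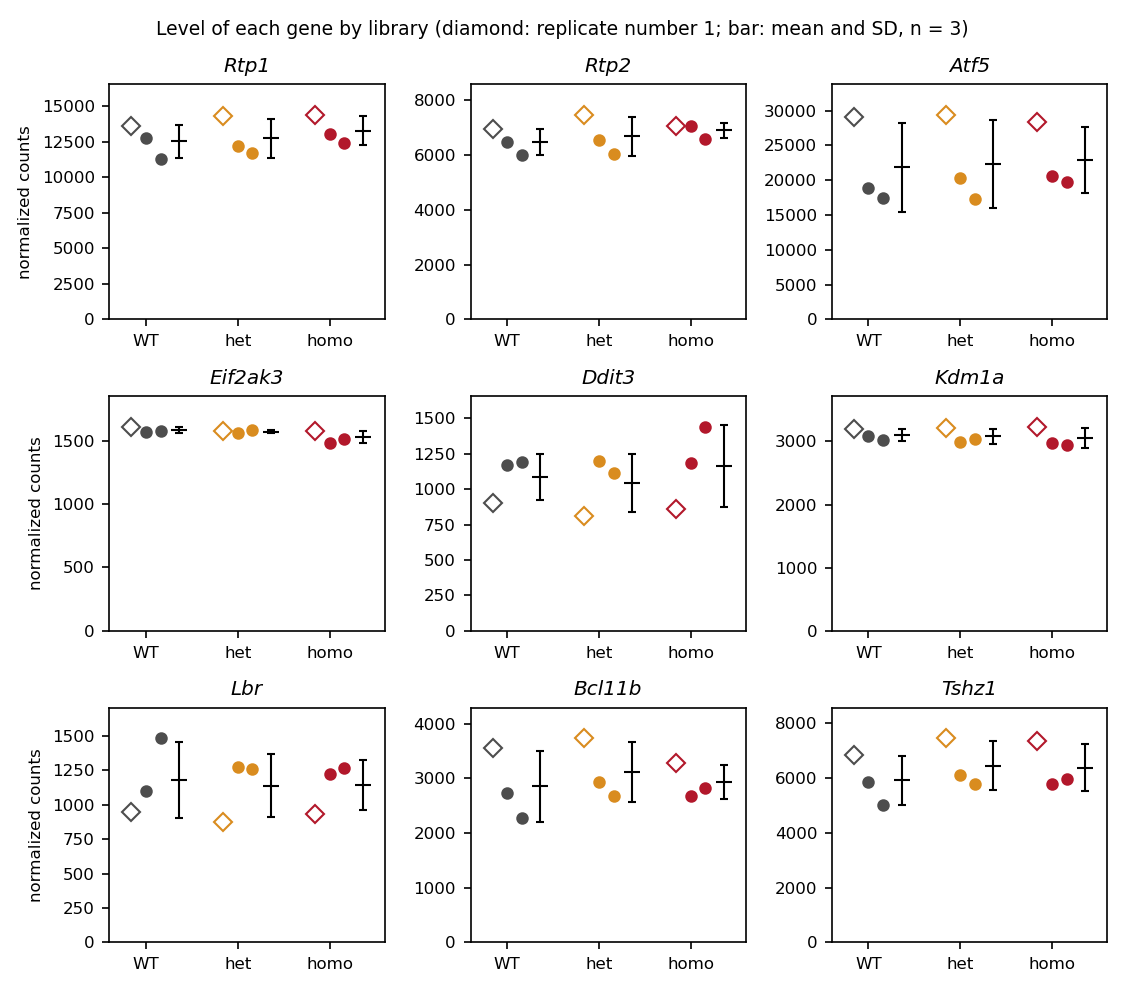
Normalized counts of each member (y axis, from 0) in the 3 genotypes (x axis), with 1 point per library, diamonds for replicate number 1, and the mean and SD of each genotype (n = 3). The genotypes overlap for all 9 genes, while the diamonds sit apart from the circles in every genotype for Atf5, Ddit3, Lbr, Bcl11b and Tshz1.

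The design asks whether loss of 1 or both copies of TAAR enhancer 2 changes expression in the MOE. To be called, a gene needed a change over 1.5-fold and a Benjamini-Hochberg adjusted p under 0.05 in the edgeR quasi-likelihood test. Of the 9 members, 0 were called in homo against WT, where 0.0202% of all genes tested were called. In het against WT 0 members were called, with a background of 0.00%, and in homo against het also 0, with a background of 0.00506%. The test for any difference among the 3 genotypes called 0 members and 0.00506% of all genes.

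At an unadjusted p under 0.05 the count of members was still 0 in each comparison. The share of all genes at that level was 3.45% in homo against WT, 1.28% in het against WT, 0.662% in homo against het and 1.39% in the test for any difference. DESeq2 and limma-voom also gave 0 members, both called and at an unadjusted p under 0.05, in each genotype comparison. In no member did the libraries of 2 genotypes stand clear of each other, whereas 5.68% of all genes did so in homo against WT, 3.95% in het against WT and 4.15% in homo against het. With shares this small, a count of 0 among 9 genes does not set the members apart from other genes.

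The intervals say more than the counts. Over the 9 members and 3 comparisons the log2 fold changes lay between -0.08 and 0.17. Of the 27 intervals, 23 stayed within 1.5-fold in both directions, and the 4 that did not were those of Atf5 in all 3 comparisons and of Ddit3 in homo against het. With a term for replicate number 1 in the model, all 27 intervals stayed within 1.5-fold, the outermost bounds being -0.29 and 0.36. In that fit the Atf5 log2 fold change in homo against WT was 0.10 ± 0.09, with an interval of -0.11 to 0.30, and for Kdm1a the interval was -0.12 to 0.08. No member reached an unadjusted p under 0.05 in that fit either, where 6.68% of all genes did in homo against WT. The smallest edgeR adjusted p of a member in it was 0.709, for Tshz1 in homo against WT.

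The same held with the replicate number as a block, which sets het beside WT and homo beside het of the same number. Between homo and het, libraries numbered 2 and 3 were less alike within a number than across numbers. Pairs of these libraries therefore go by label only. All 27 intervals again stayed within 1.5-fold, between -0.28 and 0.37, and 0 members reached an unadjusted p under 0.05, beside 3.39% of all genes in het against WT and 1.17% in homo against het. Rtp1 was higher in homo than in the het library of the same number in 3 of 3 pairs, as were 12.1% of all genes, and its blocked log2 fold change was 0.07 ± 0.07 (edgeR adjusted p = 1). In het against WT, Rtp2, Bcl11b and Tshz1 were higher in 3 of 3 pairs, as were 9.83% of all genes, and Eif2ak3 was lower in 3 of 3, as were 12.3%. Their blocked log2 fold changes were 0.04 ± 0.06, 0.13 ± 0.08, 0.12 ± 0.07 and -0.01 ± 0.06, with edgeR adjusted p of 0.954, 0.946, 0.946 and 0.988.

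**Figure D3:**
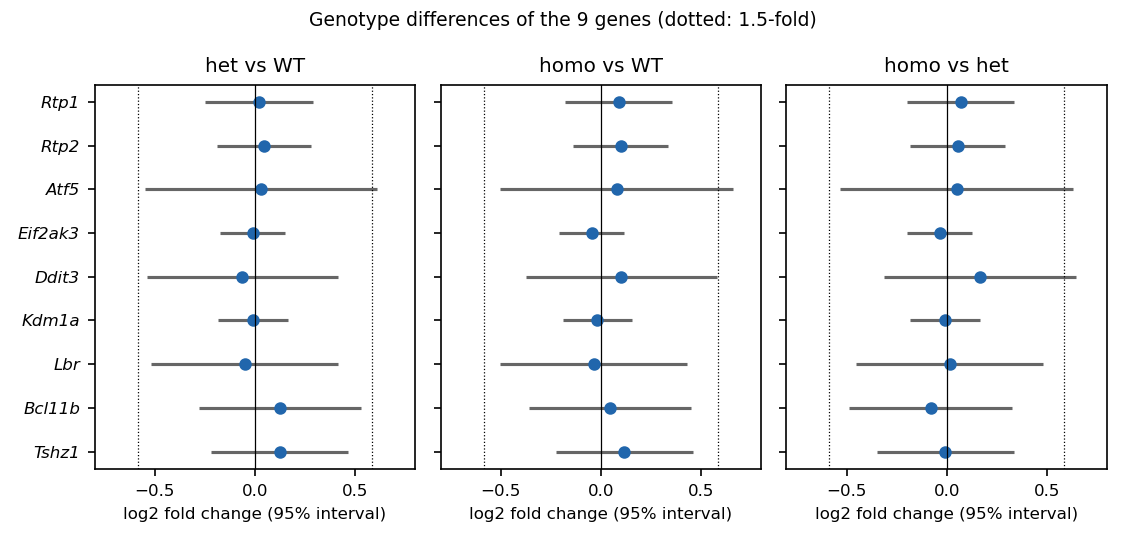
Log2 fold change (x axis) of each member in het against WT, homo against WT and homo against het, with points for estimates, bars for 95% intervals of the edgeR fit and dotted lines at 1.5-fold. All 27 intervals cross 0, and only those of Atf5, and of Ddit3 in homo against het, reach a dotted line.

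The clearest structure among the members followed the replicate number. This split was chosen because an earlier look at these same data showed the number 1 libraries to stand apart. Its p-values therefore describe the split and are not an independent test of it. Against numbers 2 and 3, and with genotype in the model, number 1 was higher in Atf5 by 0.61 ± 0.08 on the log2 scale (edgeR adjusted p = 8.34e-04, higher in 3 of 3 genotypes), in Bcl11b by 0.39 ± 0.07 (adjusted p = 0.0044), in Tshz1 by 0.33 ± 0.06 (adjusted p = 0.00351) and in Rtp1 by 0.20 ± 0.06 (adjusted p = 0.0334). Number 1 was lower in Ddit3, where the log2 difference was -0.50 ± 0.08 (adjusted p = 0.00233), and in Lbr, where it was -0.46 ± 0.09 (adjusted p = 0.00636). Rtp2, at 0.15 ± 0.06, Kdm1a, at 0.10 ± 0.04, and Eif2ak3, at 0.04 ± 0.04, did not pass, with adjusted p of 0.0814, 0.083 and 0.498. Atf5 and Ddit3, which belong to 1 pathway, thus moved in opposite directions between the same libraries.

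The background of this comparison was wide. Of the 9 members 1, Atf5, was called, beside 8.95% of all genes. At an adjusted p under 0.05 with any fold, 6 of 9 passed, 4 higher and 2 lower, beside 31.6% of all genes, 17.0% higher and 14.7% lower. In CPM, 8 of 9 members had number 1 libraries that did not overlap the other 6, beside 34.0% of all genes. The exception was Rtp2, and in the deposited normalized counts Eif2ak3 overlapped as well. The Atf5 call ended without WT replicate 1, at a log2 difference of 0.58, and without het replicate 3, at 0.57, which are both just under 1.5-fold, while its adjusted p was at most 0.0121 over all alternatives. The adjusted p of Lbr rose to 0.0504 in 1 of 17 alternatives, and that of Rtp1 was under 0.05 in 9 of 17.

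The differences ran with the GC content of the transcript. Over all genes tested, the median log2 difference of number 1 rose from -0.24 in the quintile of genes with the lowest GC content to 0.24 in the quintile with the highest, while Spearman's rho across 19019 genes was 0.38 with GC content and -0.02 with transcript length. These genes share the same libraries and are not independent replicates. Atf5, at 0.61, lay in the highest GC quintile, above its upper quartile of 0.52. Ddit3 and Lbr, at -0.50 and -0.46, lay in the second lowest, whose median was -0.11. Both were below its lower quartile of -0.33. Tshz1, at 0.33, lay in the second highest, whose upper quartile was 0.34. Bcl11b and Rtp1, at 0.39 and 0.20, lay in the middle quintile, whose median was -0.03 and whose upper quartile was 0.19. The part of GC content, and of the lower depth of number 1, in these differences was not tested, and depth and replicate number cannot be told apart.

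**Figure D4:**
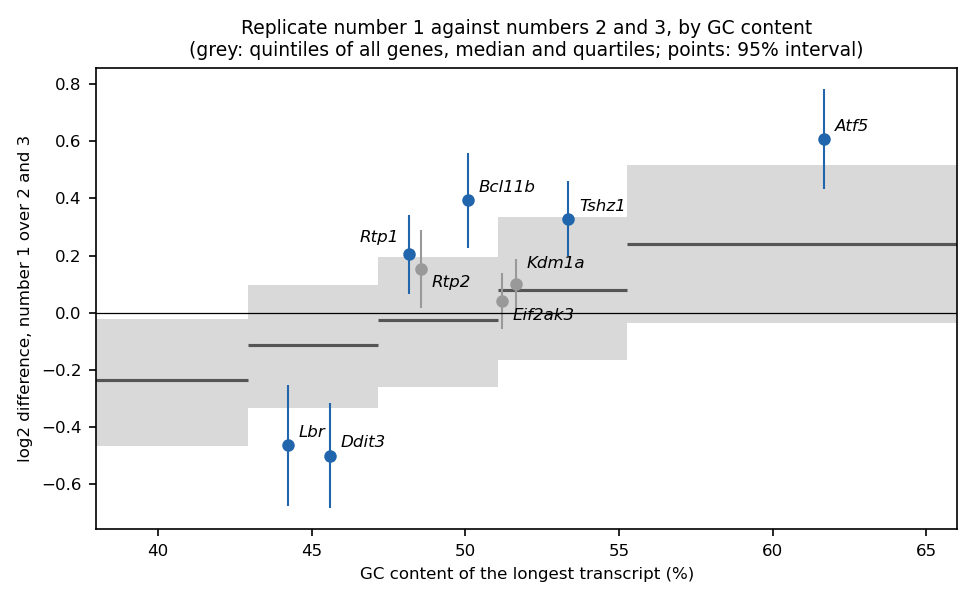
Log2 difference of replicate number 1 over numbers 2 and 3 (y axis) against GC content of the longest transcript (x axis, shown from 38 to 66%, so the outermost quintiles extend beyond it). Grey boxes give the quartiles and lines the median of all genes by quintile of GC content, points give the members with 95% intervals, blue where the adjusted p was under 0.05. Atf5 lies at the upper right at 0.61, Ddit3 and Lbr lie at the lower left at -0.50 and -0.46.

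Markers of other cells moved with the number too. The 5 immature OSN markers summed to 1604 to 1617 CPM in number 1 and 1106 to 1407 CPM in the others, and the 4 B cell markers to 8.84 to 11.7 CPM against 18.2 to 42.4 CPM. Sums were also higher in all number 1 libraries for 6 neuronal progenitor markers, at 569 to 618 CPM against 346 to 541 CPM, for 3 horizontal basal cell markers, at 119 to 163 CPM against 72.3 to 101 CPM, and for 4 ciliated respiratory cell markers, at 566 to 611 CPM against 366 to 522 CPM. The 7 neutrophil markers overlapped as a sum, at 685 to 1021 CPM in number 1 and 280 to 3485 CPM in the others. As single genes, 2 of the 7 were called, lower in number 1. Their log2 differences ran from -2.74 to 0.63, with a median of -1.87 over the 7. None of these markers was at 0 in all libraries, and the mature OSN sums overlapped, at 6470 to 6911 CPM in number 1 and 6333 to 7311 CPM in the rest. Single mature OSN markers still differed. Of the 9, 1 was called, higher in number 1, beside 8.95% of all genes. At an adjusted p under 0.05, 2 were higher and 1 lower, beside 17.0% and 14.7% of all genes. The part of these cells in the members' differences was not tested. Omp, the marker protein of mature OSNs, gave a second denominator. Per 100 counts of Omp, Atf5 had 54.1 to 56.5 counts in number 1 and 32.8 to 36.6 in the others, so the number 1 libraries again stood clear of the others.

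Adcy3, the adenylyl cyclase that the Atf5 step precedes, did not follow Atf5 across the numbers. Its normalized counts were 12866, 14061 and 12970 in the number 1 libraries and 12177 to 14541 in the other 6, which overlap. Over all 9 libraries, the Pearson r of Atf5 with Adcy3 in log2 CPM was 0.20. Within the 6 libraries numbered 2 and 3 it was 0.99, and Spearman's rho was 1.0. Without the 2 libraries farthest from the Atf5 median, WT replicate 3 and het replicate 3, it was 0.97 over 4. These 6 points come from whole tissue of the same line, the spread they cover is an SD of 0.11 log2 units in each gene, and the value is a description. High values were not particular to this pair. In the same 6 libraries r was 0.95 for Atf5 with Rtp2, 0.81 for Atf5 with Omp and 0.93 for Rtp2 with Adcy3. For Atf5 with Eif2ak3 it was -0.78.

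The tightest pair among the members was Bcl11b with Tshz1. Their r was 0.96 over 9 libraries and 0.99 over the 6 numbered 2 and 3, where their ranks were the same in every library. It was 0.99 without WT replicate 3, which had the lowest level of both. High values were not particular to this pair either. Over the same 6 libraries, r with the immature OSN marker Gap43 was 0.93 for Bcl11b and 0.95 for Tshz1. With the neutrophil marker S100a8 it was -0.94 for each, while with Omp it was 0.19 and 0.22, and with Adcy3 0.58 and 0.57. The part of cell makeup in the pair was not tested. Rtp1 and Rtp2 had an r of 0.93 over 9 libraries and 0.92 over 6, falling to 0.79 over 4 without the 2 libraries farthest from the Rtp1 median. Eif2ak3 ran against Rtp2 within the 6 libraries, with an r of -0.91, on a spread in Eif2ak3 of 0.03 log2 units, which is within its counting error.

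**Figure D5:**
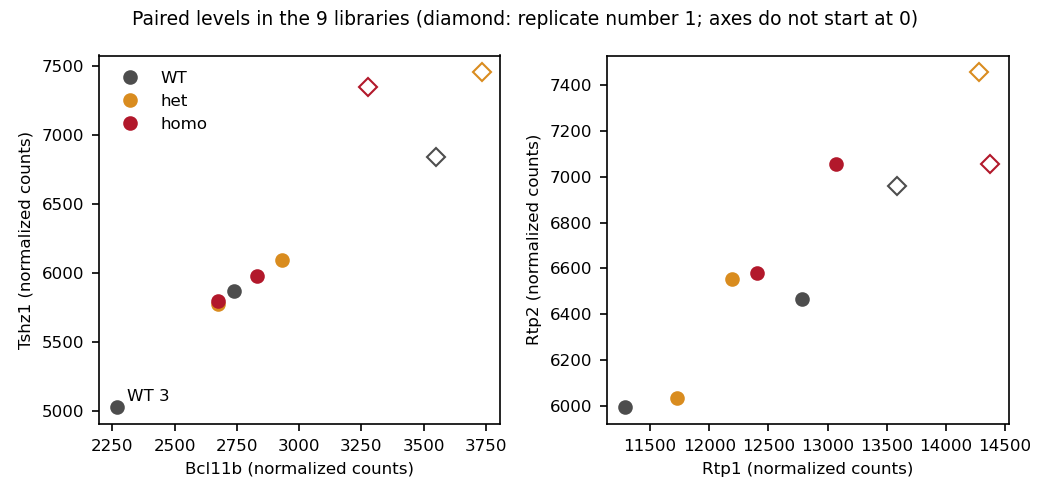
Normalized counts of Tshz1 against Bcl11b and of Rtp2 against Rtp1, with 1 point per library coloured by genotype and diamonds for replicate number 1; the axes do not start at 0. Both pairs rise together, the number 1 libraries lie at the upper right, and WT replicate 3 lies lowest in both.

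The genes most like each member over the 9 libraries were found among 13202 genes with a mean of at least 5 CPM, and the points share depth, number and cell makeup. Lbr was closest to Klhl6 (r = 0.99) and Cd72 (r = 0.99), and Cd72 encodes a surface protein of B cells. Cd72 had 361 normalized counts in WT replicate 3, 68.1 to 71.9 in the number 1 libraries and 131 to 213 in the remaining 5, which is the order seen in the B cell marker sums. Within the 6 libraries numbered 2 and 3 its r with Lbr was 0.96, but without the 2 libraries farthest from the Lbr median, WT replicates 2 and 3, it was -0.59, so the relation within these 6 rests on those libraries. The neutrophil marker S100a8 had an r with Lbr of 0.90 over 9 libraries. Over the 6 numbered 2 and 3 it was 0.81, with a Spearman's rho of 0.49. The part of B cells and of neutrophils in the Lbr level was not tested.

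Atf5 was closest to Gng13 (r = 0.995), a G protein subunit and 1 of the 9 mature OSN markers used here, and to Crmp1 (r = 0.99). Gng13 had 5202, 5481 and 5202 normalized counts in number 1 and 1640 to 2677 in the others. Rtp1 was closest to Mapk4 (r = 0.98) and Ccdc40 (r = 0.97), and Rtp2 to Rd3 (r = 0.96) and Shfm1 (r = 0.95). Eif2ak3 was closest to Ect2l (r = 0.98) and to Cfap52 (r = 0.95), a protein of motile cilia. The spread of Eif2ak3 was no larger than the counting error in the library with its fewest counts. These r values, picked as the highest among all genes searched, are a description. Ddit3 was closest to Haghl (r = 0.99) and Sdccag3 (r = 0.98), and Kdm1a to Aatf (r = 0.99) and Fbxo16 (r = 0.98). Bcl11b was closest to C530008M17Rik (r = 0.98) and to Tle1 (r = 0.98), a corepressor. Tshz1 was closest to 1700052K11Rik (r = 0.99) and to Fezf1 (r = 0.99), a zinc finger factor of the olfactory system.

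Class I odorant receptors bear on Bcl11b, which is known for limiting them. The 115 class I genes gave 8.71% to 11.6% of the counts of 1107 odorant receptor genes. The share was 9.33%, 9.02% and 11.6% in WT, 9.42%, 8.87% and 8.71% in het, and 10.2%, 9.54% and 8.93% in homo, and the genotypes overlapped. WT replicate 3 had the highest share and the lowest Bcl11b level. Summed class I receptors had 389 CPM there, below the 414 CPM of homo replicate 2. The other odorant receptors summed to 2976 CPM in WT replicate 3, near the low end of a range of 2947 to 3927 CPM. A high share with a low Bcl11b level did not hold in every library. Het replicate 3 had the lowest share, 8.71%, with a low Bcl11b level of 2673 normalized counts. Homo replicate 1 had a share of 10.2% with a higher Bcl11b level of 3278.

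The wider pathways were described with lists of related genes. In the 27 genes of the unfolded protein and integrated stress response, 0 were called in each genotype comparison, and the median log2 fold change in homo against WT was -0.08, against 0.00 for all genes tested. Pdia4, a protein disulfide isomerase, had the smallest unadjusted p (0.0213, edgeR adjusted p = 1) at -0.33 ± 0.12. Xbp1, the transcription factor activated by Ire1, followed at -0.99 ± 0.41 (unadjusted p = 0.0392, edgeR adjusted p = 1). Xbp1 had 11637 normalized counts in WT replicate 3 and 3064 to 5582 in the other 8 libraries, and Pdia4 had 3419 there and 2186 to 2640 elsewhere. In the same library the summed markers of neutrophils, of B cells (42.4 CPM, at most 35.1 elsewhere), of T cells (12.6 CPM, at most 4.87 elsewhere) and of macrophages (184 CPM, at most 116 elsewhere) were the highest and those of sustentacular cells the lowest. The part of these cells in the values was not tested. Between replicate numbers 0 of the 27 were called, beside 8.95% of all genes, and 1 was called when any one of 4 libraries (WT replicate 1, het replicate 3, and replicates 1 and 3 of homo) was left out. At an adjusted p under 0.05, 9 were higher and 7 lower in number 1, beside 17.0% and 14.7% of all genes.

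In a list of 11 other genes, receptor transport and accessory genes together with the cyclase gene Adcy3, 0 were called in each genotype comparison. The median in homo against WT was 0.00. Rtp3, also in the list, had at most 3.74 normalized counts in any library. Rtp4, a family member also known as an interferon-induced gene, was at -1.26 ± 0.73 (unadjusted p = 0.117) and had 1483 normalized counts in WT replicate 3 against 131 to 618 elsewhere. Reep4 was at -0.22 ± 0.22 (unadjusted p = 0.341). Between replicate numbers 3 of the 11 were called, all higher in number 1, beside 8.95% of all genes. At an adjusted p under 0.05, 5 were higher and 2 lower, beside 17.0% and 14.7% of all genes. Gfy, the Golgi protein Goofy that is needed for normal olfactory signalling, was higher by 1.11 ± 0.07 on the log2 scale (edgeR adjusted p = 1.19e-04), with 53729, 56748 and 57394 normalized counts in number 1 and 24381 to 27527 in the others. Reep6 was higher by 0.82 ± 0.08 (adjusted p = 2.55e-04) and Reep2 by 0.67 ± 0.19 (adjusted p = 0.0245). Ric8b, which helps the olfactory G protein to fold, was lower, with a log2 difference of -0.33 ± 0.07 (adjusted p = 0.00743). Ric8b was named after its values were seen.

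In the 13 genes of the Kdm1a CoREST complex and its relatives, 0 were called in each comparison, of genotype and of replicate number. Between replicate numbers 8.95% of all genes were called. At an adjusted p under 0.05 with any fold, 3 of the 13 were higher and 1 lower in number 1, beside 17.0% and 14.7% of all genes. Phf21a and Zmym3 had the smallest unadjusted p in homo against WT, 0.174 and 0.201, both at a log2 fold change of 0.11. The median over the list was 0.05 in homo against WT. The 14 genes of the nuclear lamina and inner nuclear membrane, to which Lbr binds or belongs, also had 0 called in each genotype comparison, with a median of -0.03. Lmnb2, a B-type lamin, was at 0.14 ± 0.13 (unadjusted p = 0.312), and Syne1, a nesprin, at -0.08 ± 0.09 (unadjusted p = 0.39). Between replicate numbers 2 of the 14 were called, both higher in number 1, beside 8.95% of all genes. These were Emd, which encodes emerin, at 0.81 ± 0.08 (edgeR adjusted p = 2.72e-04) and Dhcr7, a sterol reductase, at 0.70 ± 0.08 (adjusted p = 5.47e-04). At an adjusted p under 0.05 with any fold, 6 were higher and 1, Sun1, was lower, beside 17.0% and 14.7% of all genes. The median over the list was -0.02, and Lbr itself was lower, at -0.46 ± 0.09.

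The 3 relatives of the zinc finger members showed no called change, with 0 of 3 in each genotype comparison. Tshz2 was at 0.12 ± 0.18 (unadjusted p = 0.503) and Tshz3 at 0.08 ± 0.10 (unadjusted p = 0.45) in homo against WT. Between replicate numbers, Tshz2 was higher in number 1 by 0.40 ± 0.06 (edgeR adjusted p = 0.00207) and Bcl11a by 0.25 ± 0.06 (adjusted p = 0.0139), the same direction as Tshz1 and Bcl11b, whereas Tshz3 was at 0.01 ± 0.08 (adjusted p = 0.941). Bcl11a was also named after its values were seen.

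Some members share exonic bases with other genes, mostly on the opposite strand, and the strand setting of the counting is not given in the sources used here. The shared part was 10.7% of exonic bases in Lbr, with Dnah14 and a small ribosomal RNA gene, 8.05% in Eif2ak3, 4.73% in Ddit3, with Mars and a second gene, and 4.11% in Atf5, with Il4i1 and Nup62. The remaining 5 members shared none.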

How the data were processed

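RNA-seq of the whole MOE was analysed in 9 libraries, 3 per genotype. Per the labels and the study's methods, polyA-selected directional libraries were trimmed with Trimmomatic 0.36, mapped to GRCm38 with HISAT2 2.1.0, and counted per gene with featureCounts from Subread 1.6.2. The authors deposited the raw counts and, beside them, normalized counts, a signal the authors made by dividing the counts of each library by a DESeq2 1.20.0 size factor, from 0.806 to 1.28. The annotation release is not given in the sources used here.

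Genes with at least 10 counts over the 9 libraries were tested on raw counts with the two-sided quasi-likelihood test of edgeR 4.0.16 (R 4.3.3, TMM, genotype as the only term, 1 spread estimate over 9 libraries). Adjusted p-values cover all 19775 genes, and log2 fold changes, SE and 95% intervals come from this fit. The biological coefficient of variation was 23.3%. The replicate number comparison added a term for number 1. Alternatives were other scalings and filters, DESeq2 1.42.0, limma-voom (limma 3.58.1), each library left out, 2 genotypes alone, a replicate block and a term for number 1. Levels per length used exon lengths of the GENCODE annotation of GRCm38, matched by symbol for 19019 genes. Depth sets counting error only, since reads carry no molecular identifiers.

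The members, the gene lists and the split by replicate number were chosen with earlier results of these data known. By rule, the text names the members, listed genes called in a comparison (up to 4 between replicate numbers) or, with none called by genotype, the 2 with the smallest unadjusted p in homo against WT, and the 2 genes most like each member. The replicate numbers were checked for pairing over 16156 genes by correlating deviations from the group means. For libraries of the same number, r was 0.682, 0.457 and 0.586 for het with WT, 0.807, 0.36 and 0.195 for homo with het, and 0.532, 0.32 and -0.085 for homo with WT. All were over the limit of 0.1 except the last, so numbers were treated as pairing het with either group and not homo with WT; the main fit has no block, as in the study, and blocked values stand beside it.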

Additional observations from a re-analysis of the deposited data

How the results depend on the processing

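The 1310 alternative values were log2 fold changes of members and counts of genes called. Of these, 1231 were labelled the same. For a fold change this meant the same direction and side of the threshold. For a count it meant an equal count, often 0 in both, or one within 1.5-fold. Of the rest, 51 fold changes turned their sign, 2 lost their call and 26 counts moved further. In the genotype comparisons 0 members were called under every alternative run, and no adjusted p fell under 0.05. With the replicate block the count of members also stayed at 0, and genes called in homo against het and in the test for any genotype difference came to 3 each, against 1 without it. The term for number 1 gave 3 and 3, mature OSN marker scaling 4 and 4, and DESeq2 5 and 6, while library totals and no filter gave 4 each in homo against het. Genes called in homo against WT, 4 at first, were 1 with limma-voom and 1 with only the 2 genotypes, and 1 to 4 with a library left out. Genes called between replicate numbers, 1769 at first, ranged from 1168 to 2219 with a library left out, the lowest without homo replicate 1 and the highest without WT replicate 3, and members called there ranged from 0 to 1.

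By library totals, Kdm1a was at 0.0038 in homo against WT and 0.014 in het against WT, and Eif2ak3 at 0.013 in het against WT. By mature OSN marker scaling, Bcl11b was at -0.016 in homo against WT, Rtp1 at -0.0034 and Atf5 at -0.00453 in het against WT, and Lbr at -0.038 in homo against het. The cause was not tested.

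With each library left out in turn, the log2 fold change in homo against WT ran for Ddit3 from -0.074 to 0.28, Kdm1a from -0.059 to 0.018, Atf5 from -0.11 to 0.35, Lbr from -0.15 to 0.16 and for Bcl11b from -0.10 to 0.24. With each library left out in turn, the log2 fold change in het against WT ran for Eif2ak3 from -0.021 to 0.015, Kdm1a from -0.042 to 0.027, Atf5 from -0.22 to 0.31, Rtp1 from -0.071 to 0.094, Rtp2 from -0.043 to 0.12, Ddit3 from -0.17 to 0.086, Lbr from -0.17 to 0.14 and for Bcl11b from -0.027 to 0.33. With each library left out in turn, the log2 fold change in homo against het ran for Kdm1a from -0.056 to 0.026, Lbr from -0.14 to 0.14, Bcl11b from -0.18 to 0.072, Tshz1 from -0.13 to 0.11, Atf5 from -0.14 to 0.30, Rtp2 from -0.017 to 0.14 and for Ddit3 from -0.019 to 0.33.

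Depth and 3 libraries per genotype limit what can be seen. The SE of a genotype difference was between 0.07 and 0.26 on the log2 scale.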
